A study of Homo sapiens with 18 samples.

Results

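The genes described here build, remodel and sense the phospholipids of cell membranes: GPAM, AGPAT2, LPIN1, LPIN2, LPCAT1, LPCAT2, LPCAT3, LPCAT4, PCYT1A and ADIPOR2. They are 10 of the 60483 genes in the expression table and were picked by symbol, without regard to their level. Earlier results of these data were known when they were chosen. All 10 had a mean of at least 1 TPM (a gene's share of all transcripts, corrected for transcript length) over the 18 samples, as did 13789 genes in all, which were the genes tested.

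RNA was sequenced from OVCAR5, an established human ovarian cancer cell line labelled as unmodified (WT). Every group was kept for 24 h in medium with fatty acid-free albumin, and 6 conditions of 3 replicates each combined a fatty acid with an inhibitor. DMSO received the vehicle and no fatty acid, CAY10566 received 1 µM of this inhibitor of the desaturase SCD1 and no fatty acid, stearate+DMSO and oleate+DMSO received 50 µM of the fatty acid with vehicle, and stearate+CAY10566 and oleate+CAY10566 received 50 µM of the fatty acid with 1 µM inhibitor. For the fatty acid comparisons, samples with and without CAY10566 were pooled into control, stearate and oleate groups of 6. The design asks how a saturated fatty acid and its monounsaturated product, made by SCD1, act on these cells, with the desaturase active or inhibited. Per the study's methods each treatment was applied in 3 replicates, and in vitro experiments are described in general as independent. Neither statement says how the sequenced replicates were separated, so the p-values measure the spread between these treated samples, which may be technical.

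Phospholipids are made on the ER and on mitochondria by adding acyl chains to glycerol 3-phosphate, and phosphatidic acid then leads either to diacylglycerol and phosphatidylcholine or to the acidic phospholipids. After synthesis, phospholipases remove an acyl chain and lysophospholipid acyltransferases attach another, a cycle that sets how many saturated and unsaturated chains a membrane holds. Stearate is straight and packs tightly in a bilayer, whereas oleate is kinked by its double bond and keeps the bilayer fluid, and cells sense the difference through membrane proteins such as ADIPOR2.

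As deposited, the samples were alike across genes, with correlations between replicates of a condition from 0.982 to 0.987. The epithelial markers EPCAM and KRT8 had means of 331 and 895 TPM. Of 6 genes used as markers of high-grade serous ovarian carcinoma, the type on the label, PAX8 averaged 11.8 TPM and FOLR1 3.49 TPM, while MSLN, MUC16, WT1 and SOX17 averaged 1.02, 0.632, 0.126 and 0.0411 TPM. The leukocyte marker PTPRC, the fibroblast marker COL1A2 and the endothelial marker VWF were at 0.00556, 0.0294 and 0.0861 TPM, although CD68 stood at 94.5 TPM and COL1A1 at 5.04 TPM. The control library CAY10566 replicate 3 stood apart from the other 5 controls: 40.1% of tested genes were higher in it than in all 5, and so were 7 of the 10 phospholipid genes. In bulk RNA of a cell line, a change in the share of cells that express a gene and a change within every cell cannot be told apart.

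Averaged over the 18 samples, the levels of the 10 genes spanned a wide range. LPIN2, a phosphatidate phosphatase that turns phosphatidic acid into diacylglycerol, was the most abundant with 108 TPM, above 90.6% of tested genes. It was followed by ADIPOR2, the membrane fluidity sensor, with 61.4 TPM, and LPIN1, the lipin that also acts as a transcriptional coactivator, with 45.5 TPM. PCYT1A, the enzyme that makes CDP-choline and sets the rate of phosphatidylcholine synthesis, averaged 36.3 TPM, and AGPAT2, which makes phosphatidic acid from lysophosphatidic acid on the ER, averaged 33.8 TPM. The order of these neighbours varied between conditions: AGPAT2 was above PCYT1A in all 3 DMSO samples, whereas PCYT1A was above AGPAT2 in 13 of 18 samples in all, including 2 of 3 in CAY10566, all with stearate and all but 1 with oleate. All other neighbours kept their order in 17 or 18 of 18 samples. The lysophosphatidylcholine acyltransferases came next, with LPCAT1 at 25.4, LPCAT3 at 17.0, LPCAT4 at 10.5 and LPCAT2 at 6.32 TPM. GPAM, the mitochondrial enzyme that starts the pathway by acylating glycerol 3-phosphate, was the lowest with 4.57 TPM, above 24.7% of tested genes.

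**Figure D1:**
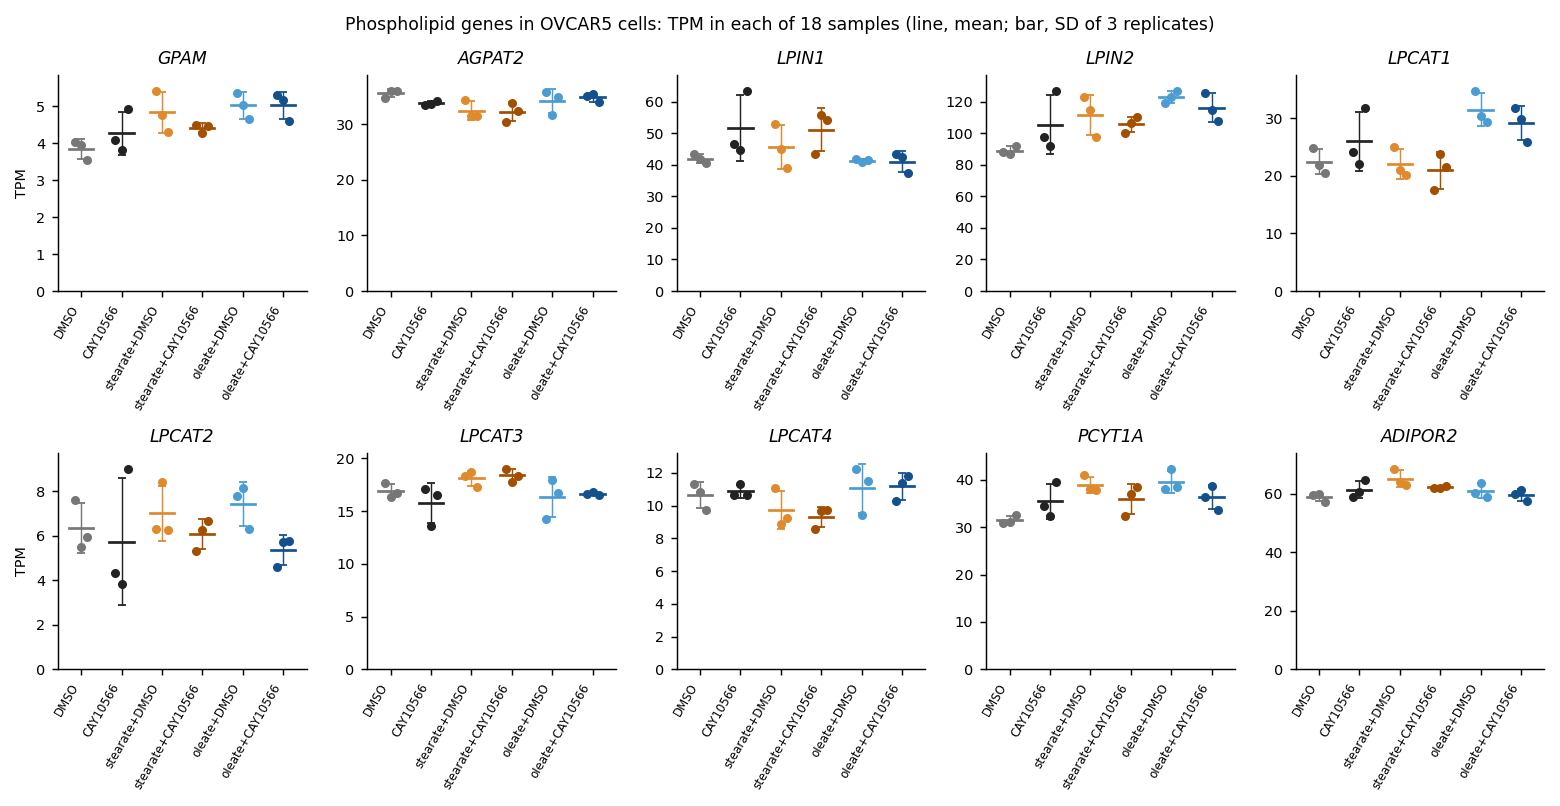
TPM of each gene (vertical axes, starting at 0) in the 18 samples, by condition (horizontal axes); points are samples, lines are means and bars are the SD of 3 replicates. The 6 oleate samples of LPCAT1 sit between 25.9 and 34.8 TPM, above all 6 stearate samples, while for each other gene the 6 oleate and 6 stearate samples overlap.

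With oleate, 4 of the 10 genes rose against control: LPIN2, LPCAT1, GPAM and PCYT1A. They rose by 0.18 to 0.32 on the log2 scale (limma with Benjamini-Hochberg adjustment over all tested genes, passing at an adjusted p under 0.05), and 0 of the 10 fell. Over all tested genes 25.7% passed in this comparison and 23% passed as higher, so 4 of 10 has to be read against that background. In the fit on log2(TPM + 1) none of the 4 also differed by more than 25% of the lower level, as 6.9% of all genes did, although LPCAT1 was at that limit, and 0 of the 10 had groups that did not overlap, against 4.06% of all genes. The median log2 fold change was 0.07 for the 10 genes and 0.09 for all tested genes, and 0.12 and 0.10 without CAY10566 replicate 3.

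LPIN2 measured 88.0, 86.6 and 92.0 TPM in DMSO, and 97.3, 92.0 and 127 TPM in CAY10566. In oleate+DMSO it measured 119, 123 and 127 TPM, and in oleate+CAY10566 126, 115 and 108 TPM. All 6 oleate samples were above 5 of the 6 controls, and the remaining control, CAY10566 replicate 3, was as high as the highest oleate samples. LPIN2 rose from 97.1 ± 15.1 TPM (SD, n = 6) in control to 119 ± 7.31 TPM (SD, n = 6) with oleate, which is 0.31 on the log2 scale (standard error [SE] 0.08, limma adjusted p = 0.00872). Without CAY10566 replicate 3 the log2 fold change was 0.39, and the call held with each of the 18 samples left out in turn.

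LPCAT1, which prefers saturated acyl chains and makes the dipalmitoyl phosphatidylcholine of lung surfactant, measured 24.9, 21.9 and 20.6 TPM in DMSO and 24.1, 22.1 and 31.8 TPM in CAY10566. It measured 34.8, 30.4 and 29.3 TPM in oleate+DMSO and 31.8, 29.9 and 25.9 TPM in oleate+CAY10566. Again the oleate samples exceeded 5 of the 6 controls, and CAY10566 replicate 3 lay among them. LPCAT1 rose from 24.2 ± 4.02 to 30.3 ± 2.93 TPM (n = 6 each, SD), which is 0.32 on the log2 scale (SE 0.10, limma adjusted p = 0.0198), and 0.40 without CAY10566 replicate 3. Without DMSO replicate 3 its adjusted p was 0.0519.

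GPAM was low in every sample, from 3.54 to 5.42 TPM. Its control samples ran from 3.54 to 4.92 TPM with a median of 4.00, and its oleate samples from 4.60 to 5.36 TPM with a median of 5.11. Only CAY10566 replicate 3, at 4.92 TPM, reached into the oleate range. GPAM rose by 0.25 on the log2 scale with oleate (SE 0.07, adjusted p = 0.0139 in limma), and by 0.30 without that library.

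PCYT1A, whose enzyme is switched on when it binds membranes poor in phosphatidylcholine, ran from 30.9 to 39.6 TPM in control with a median of 32.4. With oleate it ran from 33.7 to 42.3 TPM with a median of 38.2, and the ranges overlapped. PCYT1A rose by 0.18 on the log2 scale (SE 0.06, adjusted p = 0.0482 in limma), but this call held in only 4 of the 18 fits that left out a sample, among them that without CAY10566 replicate 3, at 0.23. It held under 2 of 8 other settings, and was lost with replicate number in the model.

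The other 6 genes did not pass with oleate. AGPAT2, LPCAT3 and ADIPOR2 had log2 fold changes of -0.01, 0.01 and 0.01, with 95% intervals from -0.09 to 0.07, from -0.11 to 0.14 and from -0.07 to 0.08. LPCAT4 had a log2 fold change of 0.04 and LPCAT2 one of 0.10, the latter with an interval from -0.23 to 0.43. LPIN1 had an estimate of -0.16 with an interval from -0.37 to 0.04, and its oleate samples ran from 37.4 to 43.4 TPM against 40.6 to 63.6 TPM in control. Without CAY10566 replicate 3 the LPIN1 estimate was -0.07 and that of LPCAT2 0.21, neither of which passed.

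The scale of the samples bears on these directions. TPM was used as deposited, and median-of-ratios size factors over the tested genes were 0.997 to 1.06 in oleate samples, 0.976 to 1.05 in stearate samples, 1.02 in CAY10566 replicate 3 and 0.942 to 0.968 in the other controls. After rescaling by them, the share of passing genes that were higher went from 89.5% to 49.9% for oleate against control, from 69.3% to 43.7% for stearate against control and from 32.5% to 47.5% for stearate against oleate. LPIN2 still rose with oleate, by 0.21 (adjusted p = 0.0268 in limma), while GPAM, LPCAT1 and PCYT1A kept positive estimates of 0.17, 0.22 and 0.08 that did not pass. LPIN1 and ADIPOR2 passed as lower after rescaling, at -0.26 and -0.093 (adjusted p = 0.0410 and 0.0199 in limma), so that 1 of the 10 was higher and 2 were lower with oleate. Over all tested genes, 9.07% were then higher and 9.12% lower with oleate.

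**Figure D2:**
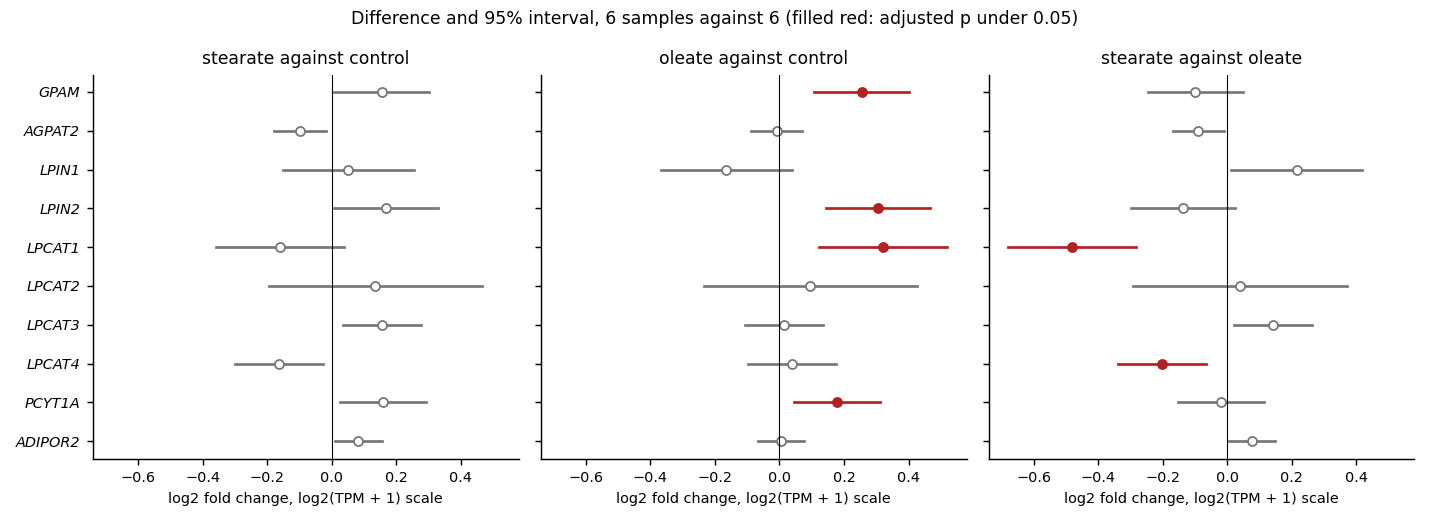
Log2 fold change on the log2(TPM + 1) scale (horizontal axes) with its 95% interval for each gene (vertical axis), for 6 samples against 6 in each of the 3 fatty acid comparisons; filled red points passed at an adjusted p under 0.05. The farthest point from 0 is LPCAT1 for stearate against oleate, at -0.48, and 0 points are filled for stearate against control.

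With stearate, 0 of the 10 genes passed against control in limma with Benjamini-Hochberg adjustment, where 19.4% of all tested genes passed, 5.35% passed with a difference over 25% and 7.79% had groups that did not overlap. At an unadjusted p under 0.05 there were 7 of the 10, against 33.8% of all genes, and the median log2 fold change was 0.11 for the 10 genes and 0.06 for all genes. The oleate and stearate comparisons share their 6 control samples.

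LPCAT3, which attaches polyunsaturated chains and is induced by the sterol receptor LXR, had the lowest adjusted p among them. It ran from 13.6 to 17.7 TPM in control with a median of 16.6, and from 17.3 to 19.0 TPM with stearate with a median of 18.3, so that 5 of the 6 stearate samples were above every control. Its log2 fold change was 0.15 (SE 0.06, 95% interval 0.03 to 0.28, adjusted p = 0.0669 in limma).

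LPCAT4, an acyltransferase of lysophosphatidylcholine and lysophosphatidylethanolamine, and AGPAT2 had negative estimates. LPCAT4 ran from 9.74 to 11.3 TPM in control and from 8.59 to 11.1 TPM with stearate, or -0.16 on the log2 scale (limma adjusted p = 0.0871). AGPAT2 ran from 33.5 to 36.1 TPM in control and from 30.4 to 34.4 TPM with stearate, or -0.10 on the log2 scale (limma adjusted p = 0.0748). Both passed as lower when TPM was rescaled by size factors, at -0.22 and -0.16 (adjusted p = 0.0271 and 0.0112 in limma). In that setting 10.2% of all tested genes passed as lower.

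GPAM, LPIN2, PCYT1A and ADIPOR2 had stearate estimates of 0.16, 0.17, 0.16 and 0.08, with adjusted p of 0.125, 0.128, 0.0883 and 0.0942 in limma. All 4 passed as higher once CAY10566 replicate 3 was left out, where 26.8% of all genes passed, and LPIN2 then had a log2 fold change of 0.25 (adjusted p = 0.00326 in limma). LPCAT1 had a stearate estimate of -0.16 with a 95% interval from -0.36 to 0.04, LPCAT2 one of 0.13 with an interval from -0.20 to 0.47, and LPIN1 one of 0.05 with an interval from -0.15 to 0.25. Without CAY10566 replicate 3 these became -0.08, 0.25 and 0.14, and none passed.

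Stearate and oleate were compared directly as a pair of fatty acids that differ by a double bond, at the same dose and time. LPCAT1 and LPCAT4 were lower with stearate than with oleate and 0 genes were higher, so 2 of 10 passed in limma against 21.1% of all tested genes, and against 14.3% that passed as lower. LPCAT1 alone among the 10 also differed by more than 25% of the lower level in the fit, as did 6.37% of all genes, and alone had groups that did not overlap, as did 10.2% of all genes. The median log2 fold change was -0.05 for the 10 genes and -0.03 for all genes.

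In stearate+DMSO, LPCAT1 measured 25.0, 21.1 and 20.1 TPM, and in stearate+CAY10566 it measured 17.5, 23.8 and 21.6 TPM. The highest of these 6 values lay below the lowest oleate value, 25.9 TPM. The stearate mean was 21.5 ± 2.68 TPM (SD, n = 6), and LPCAT1 was lower than with oleate by a log2 fold change of -0.48 (SE 0.10, 95% interval -0.68 to -0.28, adjusted p = 0.00131 in limma). The call held in all 18 fits that left out a sample, with values from -0.52 to -0.43, and under all 8 other settings tried, with values from -0.50 to -0.43. LPCAT4 ran from 8.59 to 11.1 TPM with stearate and from 9.40 to 12.2 TPM with oleate. It was lower with stearate by a log2 fold change of -0.20 (SE 0.07, adjusted p = 0.0339 in limma), a call that held in 10 of the 18 fits that left out a sample and was lost when TPM was rescaled by size factors (-0.16, adjusted p = 0.0795).

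The other 8 genes did not pass for stearate against oleate. LPIN1 had an estimate of 0.22 (95% interval 0.01 to 0.42), LPCAT3 one of 0.14 (interval 0.02 to 0.26) and ADIPOR2 one of 0.08 (interval 0.01 to 0.15). These 3 passed as higher with stearate when TPM was rescaled by size factors, at 0.26, 0.18 and 0.12 (adjusted p = 0.0401, 0.0237 and 0.00336 in limma). For this comparison, 10.4% of all tested genes passed as higher after rescaling. PCYT1A had an estimate of -0.02 with an interval from -0.15 to 0.11, and LPIN2 one of -0.14 with an interval from -0.30 to 0.02.

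The upstream sequence of the genes at the centre of these results is shown next, for LPCAT1, LPIN2 and GPAM because they rose with oleate, and for LPCAT3 as a remodelling enzyme that did not. Each is the 250 bases before a RefSeq transcription start on GRCh38.p14, minus strand, written 5′ to 3′, and capitals mark every match, on either strand, to the 5 motifs searched. The windows are chr5:1523961-1524210 for LPCAT1, chr18:3013145-3013394 for LPIN2, chr10:112183766-112184015 for GPAM and chr12:7018477-7018726 for LPCAT3. The LPIN2 window is the start next to the annotated 5′ end of the gene.
LPCAT1: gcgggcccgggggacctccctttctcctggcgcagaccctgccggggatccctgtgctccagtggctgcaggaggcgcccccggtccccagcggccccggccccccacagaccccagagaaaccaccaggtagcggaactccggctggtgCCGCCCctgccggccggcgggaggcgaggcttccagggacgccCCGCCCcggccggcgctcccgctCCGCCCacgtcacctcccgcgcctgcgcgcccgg
LPIN2: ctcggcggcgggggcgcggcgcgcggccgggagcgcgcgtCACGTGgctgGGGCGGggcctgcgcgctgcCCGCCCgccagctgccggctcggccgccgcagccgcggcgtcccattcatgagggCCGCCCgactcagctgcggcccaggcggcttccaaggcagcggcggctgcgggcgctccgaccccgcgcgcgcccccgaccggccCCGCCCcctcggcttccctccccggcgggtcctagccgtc
GPAM: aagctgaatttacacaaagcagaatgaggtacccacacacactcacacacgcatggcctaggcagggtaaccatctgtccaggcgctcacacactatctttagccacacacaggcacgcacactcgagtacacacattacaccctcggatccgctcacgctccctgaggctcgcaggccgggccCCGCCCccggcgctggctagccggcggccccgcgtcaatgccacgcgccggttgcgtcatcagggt
LPCAT3: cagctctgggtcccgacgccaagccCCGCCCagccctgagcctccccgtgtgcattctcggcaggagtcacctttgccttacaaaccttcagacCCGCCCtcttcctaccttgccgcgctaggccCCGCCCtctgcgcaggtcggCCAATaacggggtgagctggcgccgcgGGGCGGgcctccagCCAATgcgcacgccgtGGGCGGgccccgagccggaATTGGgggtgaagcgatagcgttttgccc

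The motifs were the CCAAT box (CCAAT), the GC box (GGGCGG), the E-box (CACGTG), an SRE-like motif (TCACNCCAC) and an ATF4 composite motif (TGATGNAA). They were found in 32%, 42.6%, 6.34%, 0.883% and 3.14% of 35116 windows of the same length. LPCAT3 held 3 CCAAT boxes and 5 GC boxes, LPCAT1 held 3 GC boxes, LPIN2 held 4 GC boxes and 1 E-box, and GPAM held 1 GC box. PCYT1A also rose with oleate, and its window, not printed here, held 0 matches to the 5 motifs. Another LPIN2 window, also not printed, held 0 as well. The SRE-like and ATF4 letters were in 0 of the 11 windows found for 8 of the 10 genes, which describes these windows only. LPCAT2 and ADIPOR2 had no window.

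Within samples, the balance between related enzymes was read as a ratio of TPM, which scaling between samples does not alter. These ratios were chosen after values were seen and are given as a description with no test. LPIN2 divided by LPIN1 ran from 2.71 to 3.05 in the 6 oleate samples, from 2.00 to 2.27 in the controls and from 1.91 to 2.55 in the stearate samples. The oleate samples lay above all others, CAY10566 replicate 3 included. LPCAT1 divided by LPCAT3 ran from 1.57 to 2.44 with oleate, from 1.23 to 1.92 in control and from 0.919 to 1.36 with stearate, so oleate and stearate did not overlap and the controls overlapped both.

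**Figure D3:**
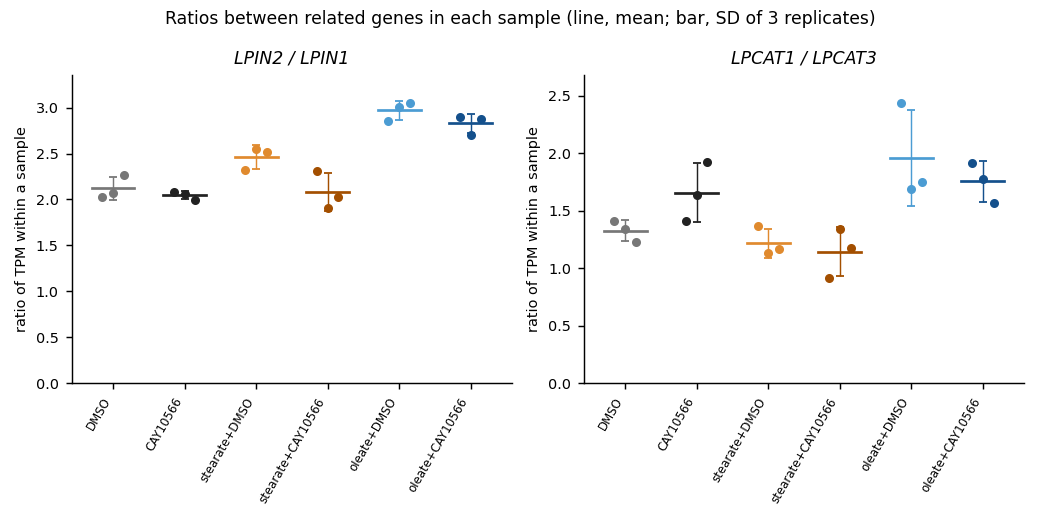
Ratio of TPM within each sample (vertical axes, starting at 0) for LPIN2 over LPIN1 and LPCAT1 over LPCAT3, by condition (horizontal axes); points are samples, lines are means and bars are the SD of 3 replicates. LPIN2 over LPIN1 is highest in the 6 oleate samples, from 2.71 to 3.05.

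Taking the 4 LPCAT genes as a pool, the summed level was 57.4 ± 6.33 TPM in control, 55.8 ± 3.65 TPM with stearate and 64.3 ± 3.02 TPM with oleate (SD, n = 6 each). LPCAT1 made up 42.1 ± 2.90% of it in control, 38.4 ± 2.56% with stearate and 47.1 ± 2.78% with oleate. LPCAT3 made up 28.6 ± 2.68%, 32.8 ± 2.63% and 25.7 ± 2.54% in the same order. The share of LPCAT1 was thus lowest and that of LPCAT3 highest with stearate, and the reverse held with oleate. Without CAY10566 replicate 3 the control sum was 55.2 ± 4.03 TPM (SD, n = 5), below that with stearate. The control shares were then 41.2% for LPCAT1 and 29.5% for LPCAT3. Between control and stearate, the LPCAT1 share went from 39.8% to 38.7% in DMSO samples and from 44.4% to 38.1% in CAY10566 samples.

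CAY10566 changed 0 of the 10 genes over 9 samples against 9 with fatty acid as a covariate (limma with Benjamini-Hochberg adjustment), as it did 0% of all tested genes. At an unadjusted p under 0.05 there were 748 genes in all and 1 of the 10, LPCAT2, an acyltransferase that also makes platelet-activating factor. LPCAT2 ran from 5.47 to 8.43 TPM with DMSO, with a median of 6.32, and from 3.84 to 9 TPM with CAY10566, with a median of 5.70. The highest value was CAY10566 replicate 3, and the other 8 samples with inhibitor were at or below 6.64 TPM. Its log2 fold change was -0.26 (SE 0.12, adjusted p = 0.900 in limma), and -0.35 without that library.

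Within each fatty acid group, 3 samples against 3, CAY10566 likewise changed 0 of the 10 genes. The share of all genes that passed was 0% without fatty acid, 0.0145% with stearate and 0% with oleate, and 2, 0 and 0 of the 10 had an unadjusted p under 0.05, against 10.1%, 5.52% and 4.72% of all genes. The 2 were LPIN1 and LPIN2 without fatty acid, with log2 fold changes of 0.28 and 0.23 (adjusted p = 0.473 and 0.467 in limma), which became 0.12 and 0.09 without CAY10566 replicate 3. In both the highest CAY10566 value was replicate 3, at 63.6 TPM for LPIN1 where the other controls ran from 40.6 to 46.7 TPM, and at 127 TPM for LPIN2 where they ran from 86.6 to 97.3 TPM.

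The fatty acid effects were also taken with the desaturase active and inhibited, in a limma model of the 6 conditions. In DMSO samples, oleate raised LPIN2, LPCAT1, PCYT1A and GPAM, 4 of 10 against 24.2% of all genes, or 21.1% as higher. The log2 fold changes were 0.46, 0.47, 0.32 and 0.31 (adjusted p = 0.00559, 0.0195, 0.00947 and 0.0331), where the median over all tested genes was 0.11. Over the 18 fits that left out a sample this count ran from 2 to 4, with 2 without DMSO replicate 2. In CAY10566 samples, oleate changed 0 of 10, against 0.109% of all genes, and 1 of the 10, LPIN1, had an unadjusted p under 0.05, as did 13.4% of all genes. The estimates for LPIN2, LPCAT1, PCYT1A and GPAM were 0.15, 0.17, 0.03 and 0.20. Without CAY10566 replicate 3 they were 0.29, 0.32, 0.11 and 0.28, and 4.96% of all genes passed but still 0 of 10. The LPIN1 estimate went from -0.31 to -0.15.

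Stearate raised LPIN2 and PCYT1A in DMSO samples, by 0.32 and 0.30 (adjusted p = 0.0422 and 0.0218 in limma), 2 of 10 against 14% of all genes. Neither passed without DMSO replicate 1 or 2 or without stearate+DMSO replicate 1 or 2. Over the other settings the count ran from 1 to 3. With size factors LPIN2 did not pass and AGPAT2 passed as lower. PCYT1A measured 30.9, 31.1 and 32.5 TPM in DMSO and 41.0, 38.0 and 37.9 TPM in stearate+DMSO. In CAY10566 samples stearate changed 0 of 10, against 4.75% of all genes, with LPCAT1 and LPCAT3 at an unadjusted p under 0.05, as were 19.0% of all genes. Their estimates were -0.29 and 0.22, and -0.15 and 0.26 without CAY10566 replicate 3. There PCYT1A measured 34.5, 32.3 and 39.6 TPM without fatty acid and 32.3, 37.0 and 38.4 TPM with stearate.

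The difference between these effects was tested as an interaction with the inhibitor, and 0 of 10 genes passed for stearate or for oleate in limma, against 0.00725% and 0% of all genes. LPIN2 and PCYT1A had an unadjusted p under 0.05 in both, as did 9.36% and 10.3% of all genes. Their stearate interactions were -0.31 and -0.28 (adjusted p = 0.524 and 0.512) and their oleate interactions -0.32 and -0.29 (adjusted p = 0.474 and 0.449). Without CAY10566 replicate 3, which belongs to the inhibited control of these contrasts, they were -0.16 and -0.20 for stearate and -0.18 and -0.21 for oleate.

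Stearate against oleate gave LPCAT1 in both backgrounds, with log2 fold changes of -0.50 in DMSO samples and -0.47 in CAY10566 samples (adjusted p = 0.0301 and 0.0447 in limma). In each it was 1 of 10 genes, against 8.98% and 7.66% of all genes. The DMSO call was lost without stearate+DMSO replicate 2 or 3 or without any of the oleate+DMSO replicates, and the CAY10566 call in 11 of the 18 fits that left out a sample.

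**Figure D4:**
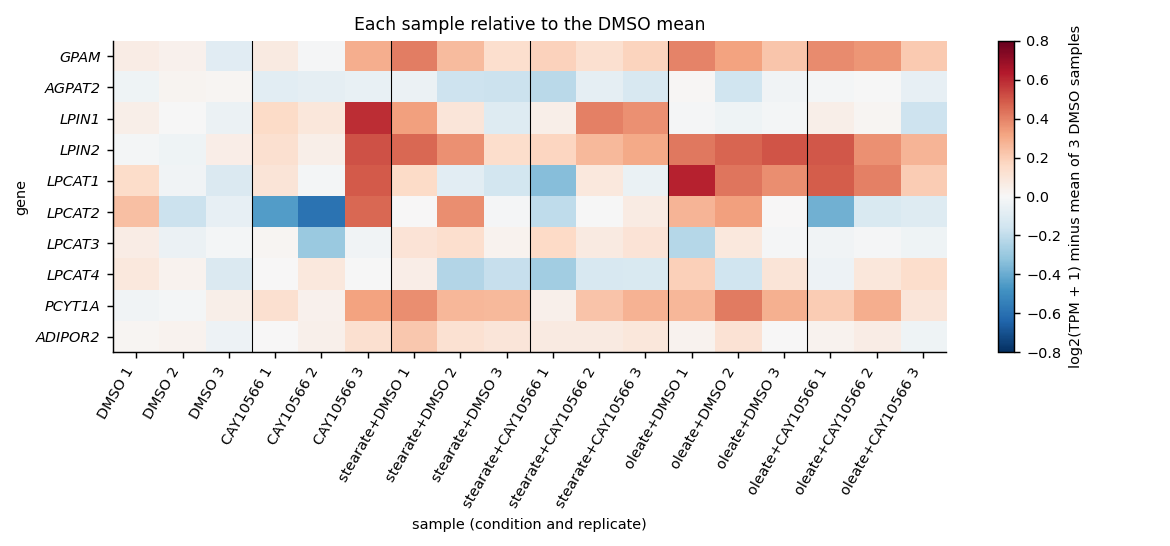
Difference of each sample from the mean of the 3 DMSO samples on the log2(TPM + 1) scale (colour), for the 10 genes (vertical axis) in the 18 samples (horizontal axis, by condition and replicate). CAY10566 replicate 3 is a deeper red than the 2 other samples of its condition for LPIN1, LPIN2, LPCAT1 and LPCAT2.

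CAY10566 replicate 3 exceeded the mean of the other 5 controls by 0.66 for LPCAT2, 0.54 for LPIN1, 0.47 for LPIN2 and 0.47 for LPCAT1 on the log2(TPM + 1) scale, where the median over all tested genes was 0.08. For AGPAT2, LPCAT3 and LPCAT4 the differences were -0.02, 0.03 and -0.02. What set this library apart was not tested.

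Across the 6 condition means, LPIN2 moved with GPAM (Pearson r = 0.963 on the log2 scale) and with PCYT1A (r = 0.922), LPCAT1 moved with LPCAT4 (r = 0.834), and LPCAT3 ran opposite to LPCAT4 (r = -0.901). These 6 points share their libraries and their controls, so the values are descriptions. The same measure named the genes most like LPCAT1, which had both the largest F over the 6 conditions and the largest difference between stearate and oleate among the 10. Of 10133 other genes with a mean of at least 5 TPM, they were ANO1, a calcium-activated chloride channel (r = 0.999), the adhesion receptor ADGRG6, the vesicle trafficking protein EXPH5, the RNA-binding protein SERBP1 and the methionine salvage enzyme ENOPH1 (r = 0.998 each). ANO1 stood at 7.29 ± 1.46 TPM in control, 5.95 ± 0.635 TPM with stearate and 10.6 ± 1.33 TPM with oleate (SD, n = 6 each), and ADGRG6 at 20.3 ± 3.79, 17.0 ± 1.43 and 27.9 ± 2.87 TPM. They were selected for this order, which is therefore no result.

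Around the 10 genes, 7 lists of related genes held 79 further genes, of which 75 were tested. Against control, 11 were higher and 2 lower with stearate and 12 were higher and 6 lower with oleate (limma, adjusted over all tested genes), and between stearate and oleate 11 were higher and 5 lower with stearate. Over all tested genes, 13.5% were higher and 5.97% lower with stearate, 23% and 2.7% with oleate, and 6.85% and 14.3% for stearate against oleate, so the counts for stearate and for oleate against control, 13 and 18 of 75 in all, were near the background. CAY10566 changed 0 of the 75, with 6 at an unadjusted p under 0.05. Rescaling by size factors turned the balance to 8 higher and 9 lower with stearate and to 3 higher and 13 lower with oleate, where 7.92% of all genes were higher and 10.2% lower with stearate and 9.07% and 9.12% with oleate, so the direction of a list is given below together with that alternative. In the fit without CAY10566 replicate 3, 14 were higher and 4 lower with stearate, 18 higher and 6 lower with oleate, and 11 higher and 8 lower for stearate against oleate. That fit called 26.8% of all genes with stearate and 34.2% with oleate, so its larger counts for the lists against control stand beside a larger background. Its share for stearate against oleate is not given here.

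In the synthesis of phosphatidic acid and diacylglycerol, 4 of 13 genes were higher with stearate and 3 with oleate, and 0 were lower, whereas after rescaling 2 were higher and 2 lower with stearate and 1 was higher and 1 lower with oleate. The background for higher genes was 13.5% with stearate and 23% with oleate, so the oleate count was at the background. The medians were 0.12 and 0.07, beside 0.06 and 0.09 for all genes, and 0.06 and -0.01 after rescaling. The counts without CAY10566 replicate 3 were 7 higher and 1 lower with stearate and 5 higher and 0 lower with oleate. PLPP3, a lipid phosphate phosphatase of the cell surface, rose with stearate from 18.1 ± 1.58 to 22.9 ± 1.91 TPM (n = 6 each, SD), or 0.33 on the log2 scale (limma adjusted p = 0.00189), and stood at 18.4 ± 1.49 TPM with oleate. AGPAT3, a further acyltransferase of the AGPAT family, rose with oleate from 20.8 ± 1.71 to 26.1 ± 1.35 TPM, or 0.31 on the log2 scale (limma adjusted p = 0.00246). Both calls held after rescaling, at 0.27 and 0.22.

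In the CDP-choline and CDP-ethanolamine pathways, 4 of 11 genes were higher with stearate and 3 with oleate, and 0 were lower. After rescaling 3 were higher and 1 lower with stearate, and 1 was higher with oleate. The same background of 13.5% and 23% applies. The medians were 0.04 with stearate and 0.11 with oleate, and -0.02 and 0.01 after rescaling. Leaving out CAY10566 replicate 3, the stearate median was 0.11, with 4 genes higher and 1 lower, and 4 were higher and 0 lower with oleate. The ethanolamine kinase ETNK1 rose by 0.34 with stearate and by 0.30 with oleate (adjusted p = 0.0142 and 0.0244 in limma), the latter not passing after rescaling. The choline transporter SLC44A1 rose by 0.20 and 0.28 (adjusted p = 0.0303 and 0.00520), and passed in both after rescaling.

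The branch to phosphatidylserine, phosphatidylinositol and cardiolipin had 0 of 10 genes passing with stearate (1 at an unadjusted p under 0.05) and 3 higher with oleate, which after rescaling became 0 higher and 1 lower. Over all genes 33.8% had an unadjusted p under 0.05 with stearate and 23% were higher with oleate. The phosphatidylserine synthase PTDSS1 and the decarboxylase PISD, which makes phosphatidylethanolamine in mitochondria, rose with oleate by 0.16 and 0.15 (adjusted p = 0.0223 and 0.0211 in limma), and neither passed after rescaling. The medians were 0.01 with stearate and 0.09 with oleate, and -0.04 and -0.0035 after rescaling. The stearate median without CAY10566 replicate 3 was 0.03, again with 0 genes passing, and 4 were higher with oleate.

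Among 5 other lysophospholipid acyltransferases, 1 rose with each fatty acid, where 13.5% of all genes were higher with stearate and 23% with oleate, and the medians were 0.13 and 0.10 beside 0.06 and 0.09 for all genes, and 0.07 and 0.00017 after rescaling. With CAY10566 replicate 3 left out, 2 were higher with oleate and 1 with stearate. MBOAT1, which attaches oleate to lysophosphatidylserine and lysophosphatidylethanolamine, rose with stearate from 2.94 ± 0.258 to 4.15 ± 0.224 TPM (n = 6 each, SD), or 0.39 on the log2 scale (limma adjusted p = 0.000273), and LPGAT1 rose with oleate by 0.26 (adjusted p = 0.0495). After rescaling the MBOAT1 call held at 0.34, LPGAT1 did not pass, and 1 gene was lower with each fatty acid. Of 12 phospholipases, 1 rose with each fatty acid, also after rescaling, with medians of 0.08 and 0.05, and 0.02 and -0.05 after rescaling. The oleate median without CAY10566 replicate 3 was 0.07, and the counts were as before. They were PNPLA8, a phospholipase of mitochondria and peroxisomes, with stearate (from 14.2 ± 0.961 to 19.4 ± 2.65 TPM, log2 fold change 0.42, adjusted p = 0.000756 in limma) and the lysophospholipase LYPLA1 with oleate (log2 fold change 0.22, adjusted p = 0.00261).

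Of 8 genes of membrane fluidity and lipid packing, 1 rose with each fatty acid, and after rescaling 1 was still higher with stearate while 2 were lower with oleate. These counts stand beside 13.5% and 23% of all genes that were higher, and after rescaling beside 7.92% higher with stearate and 9.12% lower with oleate. The medians were 0.09 and 0.03, and 0.03 and -0.07 after rescaling. Leaving out CAY10566 replicate 3, the oleate median was 0.02, with 1 gene higher for each fatty acid. ADIPOR1, the paralog of ADIPOR2, rose with stearate from 86.2 ± 2.21 to 96.2 ± 3.66 TPM (n = 6 each, SD), or 0.16 on the log2 scale (limma adjusted p = 0.000839). It was also higher with stearate than with oleate, by 0.10 (adjusted p = 0.0167). Both ADIPOR1 calls held after rescaling, at 0.10 and 0.14. ADIPOR2 itself ran from 57.3 to 64.6 TPM in control, from 62.0 to 68.5 TPM with stearate and from 57.5 to 63.8 TPM with oleate. PAQR3, of the same receptor family, rose with oleate by 0.21 (adjusted p = 0.0489 in limma), which did not pass after rescaling or with replicate number in the model.

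The 16 tested genes of SREBP-1 and LXR, which include enzymes of fatty acid synthesis and desaturation, had 0 higher and 2 lower with stearate and 0 higher and 6 lower with oleate, and 5 and 8 lower after rescaling. Over all genes 5.97% were lower with stearate and 2.7% with oleate, and 10.2% and 9.12% after rescaling. The medians were -0.04 and -0.08, and -0.10 and -0.17 after rescaling. The medians without CAY10566 replicate 3 were -0.02 and -0.04, with 0 higher and 2 lower for stearate and 1 higher and 6 lower for oleate. SCD, the desaturase that CAY10566 inhibits, fell with oleate from 184 ± 13.6 to 111 ± 10.3 TPM (n = 6 each, SD), or -0.72 on the log2 scale (limma adjusted p = 0.000210), and had an estimate of -0.10 with stearate. FASN, the fatty acid synthase, fell by 0.49 with stearate and by 0.61 with oleate on the log2 scale (adjusted p = 0.000409 and 0.000361 in limma). GPAM and LPCAT3, which are known targets of SREBP-1 and LXR respectively, did not pass as lower with oleate. GPAM rose, a call lost after rescaling at 0.17, and LPCAT3 had an estimate of 0.01, which was -0.08 after rescaling (adjusted p = 0.330 in limma).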

How the data were processed

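RNA of 18 OVCAR5 samples was sequenced and, per the labels and the study's methods, trimmed with Trim Galore, aligned with STAR 2.7.1a to GRCh38 and quantified with RSEM. The authors deposited TPM per gene, scaled to the same total in each sample. TPM keeps no depth, so counting error is unknown and only the spread between replicates gives precision. A single line naming no gene was left out.

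Genes whose mean TPM was 1 or more were tested on log2(TPM + 1), a scale that understates changes of low genes, with limma 3.58.1 in R 4.3.3 (lmFit, eBayes with a trend) and Benjamini-Hochberg adjustment over all 13789. Groups followed the labels. The procedure was checked on simulated data. Coordinates are from GENCODE 44 and upstream windows from RefSeq, both on GRCh38. Figures were drawn with matplotlib 3.10.9.

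The genes and lists were chosen with earlier results of these data known. Named beside the 10 were at most 2 genes per list with the largest passing change and the 5 genes closest to LPCAT1 over the condition means. Alternatives were a pseudocount of 0.1, no TPM filter or a mean of at least 5, no trend, size factors, a replicate block, CAY10566 as a covariate, removal of the trend on length and GC content in each sample, and each sample left out.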

Additional observations from a re-analysis of the deposited data

Results flagged for a closer look

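In each of the 30 sets of 6 samples (10 genes in 3 fatty acid groups), the most extreme sample was compared with the rest by Dixon's ratio, and 4 sets had a sample that stood apart, where chance gives about 1 in 20 sets. LPIN1 at 63.58 TPM and LPIN2 at 126.97 TPM were both high in CAY10566 replicate 3, against 40.6 to 46.7 TPM and 86.6 to 97.3 TPM in the other 5 controls. LPCAT3 was low, at 13.56 TPM, in CAY10566 replicate 2, and ADIPOR2 was high, at 68.52 TPM, in stearate+DMSO replicate 1.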

How the results depend on the processing

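The number of the 10 genes that passed moved with the processing, and the cause was not tested. Stearate against control gave 2 with size factors (AGPAT2 and LPCAT4, both lower) and 1 with the trend on length and GC content removed (LPCAT3), in place of 0. Oleate against control gave 2 without a TPM filter and 2 with that trend removed, in place of 4, and 3 with the replicate block, where PCYT1A was lost. Stearate against oleate gave 1 without a filter, 4 with size factors and 3 with that trend removed, where LPIN1 also passed, in place of 2. In DMSO samples, stearate gave 1 without a filter, 1 without the eBayes trend and 1 with the replicate block but 3 with a mean TPM of at least 5 in place of 2, and AGPAT2 (lower) took the place of LPIN2 with size factors. Oleate there gave 2 without a filter in place of 4, and stearate against oleate gave 0 without a filter and 2 with size factors in place of 1. In CAY10566 samples, stearate against oleate gave 0 in place of 1 without a filter, without the trend and with the replicate block. ADIPOR2 with oleate went from 0.01 to -0.093 with size factors (adjusted p = 0.0199 in limma). With each sample left out in turn, the counts ran from 0 to 4 for stearate, 2 to 4 for oleate and 1 to 3 for stearate against oleate, and in DMSO samples from 0 to 3, 2 to 4 and 0 to 1, with 0 to 1 for stearate against oleate in CAY10566 samples. The 4 for stearate came without CAY10566 replicate 3, and the 2 for oleate without DMSO replicate 3. In DMSO samples, stearate gave 0 without DMSO replicate 1 or 2 or stearate+DMSO replicate 1 or 2. Of 1026 values for single genes, 53 changed side of the threshold and 1 reversed. Among the 5 other lysophospholipid acyltransferases, 0 passed with oleate with the length and GC trend removed and with the replicate block, in place of 1, and in the phosphatidylserine, phosphatidylinositol and cardiolipin branch 1 was higher with oleate with that trend removed, in place of 3. In that fit, 2 of 12 phospholipases were higher with each fatty acid, in place of 1. With stearate, the CDP-choline and CDP-ethanolamine list there had 2 higher in place of 4. Phosphatidic acid and diacylglycerol synthesis had 2 lower with stearate in place of 0. The membrane fluidity list had 2 higher with each fatty acid in place of 1, and 1 lower with oleate in place of 0. The counts for CAY10566 and the interactions stayed at 0 throughout. GPAM left the table at a mean TPM of at least 5. Replicate numbers gave no clear pairing: correlations of same-numbered samples ran from -0.18 to 0.103 with a median of 0.012. Of 18 samples, 9 correlated best with their own number. This is more than an even split over 3 replicate numbers would give, so pairing is not excluded.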
